A study of Homo sapiens with 10 samples.

Results

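The miR-29 family was followed in small RNA sequencing libraries of ES-2 cells, an established human line derived from an ovarian cancer. Its members were chosen by name. They are the guide arms miR-29a-3p, miR-29b-3p and miR-29c-3p, and the opposite arms miR-29a-5p and miR-29b-1-5p. These are 5 of the 2576 mature miRNAs in the deposited table, of which 1196 had a read in at least 1 library, and all 5 members passed the filter on low values. ES-2 cells carried control siRNAs (siC, 2 libraries), an siRNA pool against IGF2BP1 (siIGF2BP1, 2 libraries), or such a pool against IGF2BP2 (siIGF2BP2, 3 libraries) or IGF2BP3 (siIGF2BP3, 3 libraries). IGF2BP1, IGF2BP2 and IGF2BP3 are related RNA-binding proteins that attach to many mRNAs and influence their stability and translation. The title of the series places the comparison in the question of whether IGF2BP1 impairs miRNA-directed downregulation. All groups were transfected with siRNA, no untransfected group was analysed here, and the time from transfection to harvest is not given in the sources used here.

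A miRNA guide arm is loaded into an Argonaute protein and pairs with mRNAs mainly through its seed, bases 2 to 8, while the opposite or passenger arm of the hairpin is mostly degraded. miR-29 guide arms are known for repressing mRNAs of collagens and other extracellular matrix proteins, of the DNA methyltransferases DNMT3A and DNMT3B, and of the survival protein MCL1. The family is often low in tumours, and MYC is known to repress transcription of its genes.

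The family's sequences set out which members can act on the same targets, so the guide arms are shown first, from RefSeq (assembly GRCh38.p14), 5′ to 3′ with the seed in capitals.
hsa-miR-29a-3p: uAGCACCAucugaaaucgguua
hsa-miR-29b-3p: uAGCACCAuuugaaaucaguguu
hsa-miR-29c-3p: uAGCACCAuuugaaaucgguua
All 3 carry the seed AGCACCA, and no other of the 2370 mature human entries in that table does. Counted from the 5′ end, miR-29c-3p differs from miR-29a-3p by C10U alone, so 21 of 22 bases are identical. miR-29b-3p differs from miR-29a-3p by C10U, G18A, U21G and A22U, and it is 1 base longer. Its last bases, AGUGUU, form a hexamer known to direct miR-29b to the nucleus. Uridines at bases 9 to 11, present in miR-29b-3p and miR-29c-3p but not in miR-29a-3p, are known for faster turnover of miR-29 in other cells.

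The passenger arms tell the hairpins apart, which the guide arms of miR-29b cannot do, and they are shown for that reason.
hsa-miR-29a-5p: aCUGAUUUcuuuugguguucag
hsa-miR-29b-1-5p: gCUGGUUUcauauggugguuuaga
hsa-miR-29b-2-5p: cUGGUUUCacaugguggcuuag
hsa-miR-29c-5p: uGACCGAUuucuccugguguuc
Each of these seeds occurs in 1 entry of the table. The hairpins MIR29A and MIR29B1 neighbour each other on chromosome 7, and MIR29B2 and MIR29C neighbour each other on chromosome 1 within the non-coding gene MIR29B2CHG. Both pairs are known to be made from a shared primary transcript. Both MIR29B1 and MIR29B2 yield the same miR-29b-3p. The deposited table listed 1018 reads under the first miR-29b-3p copy and 976 under the second, 51.1% for the first copy (95% exact Clopper-Pearson interval 48.8 to 53.3), and the interval of every single library included an even split. Copies of identical sequence cannot be told apart by reads, so these rows were summed. The passenger arms differed widely in level: 551 reads over all 10 libraries came from miR-29b-1-5p and 3 from miR-29b-2-5p.

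Libraries held between 462724 and 1269743 miRNA reads, with the 2 siIGF2BP1 libraries the deepest. Levels below are the authors' normalised read counts, in which 1 read is worth 0.803 to 1.996 units depending on the library. The tests used limma on log2(value + 1), fitted over 889 miRNAs and all 4 groups, with Benjamini-Hochberg adjustment, and a member is called at an adjusted p under 0.05. Fold changes are on that log2(value + 1) scale, which understates changes of low miRNAs. The labels name the source of siC and siIGF2BP1 libraries in one way and that of siIGF2BP2 and siIGF2BP3 libraries in another, so that label and the group cannot be told apart in any comparison across these pairs. The within-pair comparisons are siIGF2BP1 with siC and siIGF2BP2 with siIGF2BP3. The labels do not say whether the libraries within each group stem from separate cultures, and the p-values therefore reflect a spread that may be technical. IGF2BP mRNAs were not measured by these libraries, and the knockdowns could not be checked. Of 7 epithelial marker miRNAs such as the miR-200 family, 0 to 3 had a read in a library, with at most 7 reads in all, while fibroblast and smooth muscle markers held 0.331 to 0.517% of reads, blood cell markers 0.0439 to 0.163% and muscle, liver and neural markers 0.0105 to 0.0449%. No marker miRNA of ovarian cells was among these lists.

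miR-29a-3p made up nearly all of the family. It was lower in siIGF2BP1 libraries than in every other library. Its normalised read count was 5903 and 6526 in siC, and 4867 and 4919 in siIGF2BP1. It was 6372, 6281 and 6817 in siIGF2BP2, and 6298, 7153 and 6876 in siIGF2BP3. The siIGF2BP1 values lay below all other groups without overlap, and the other 3 groups overlapped one another. The mean of the siC libraries was 6215 ± 441 (SD, n = 2) and that of the siIGF2BP1 libraries 4893 ± 36.9 (SD, n = 2). The siIGF2BP2 libraries averaged 6490 ± 287 (SD, n = 3) and the siIGF2BP3 libraries 6776 ± 436 (SD, n = 3). These values rest on 3156 to 6058 reads a library. In mean level miR-29a-3p was the 23rd of the 1196 miRNAs with a read. Its residual SD within groups, 0.0777 on the log2 scale, was the 140th of 149 miRNAs of mean level 100 or more when ordered from the most variable, against a median of 0.155.

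**Figure D1:**
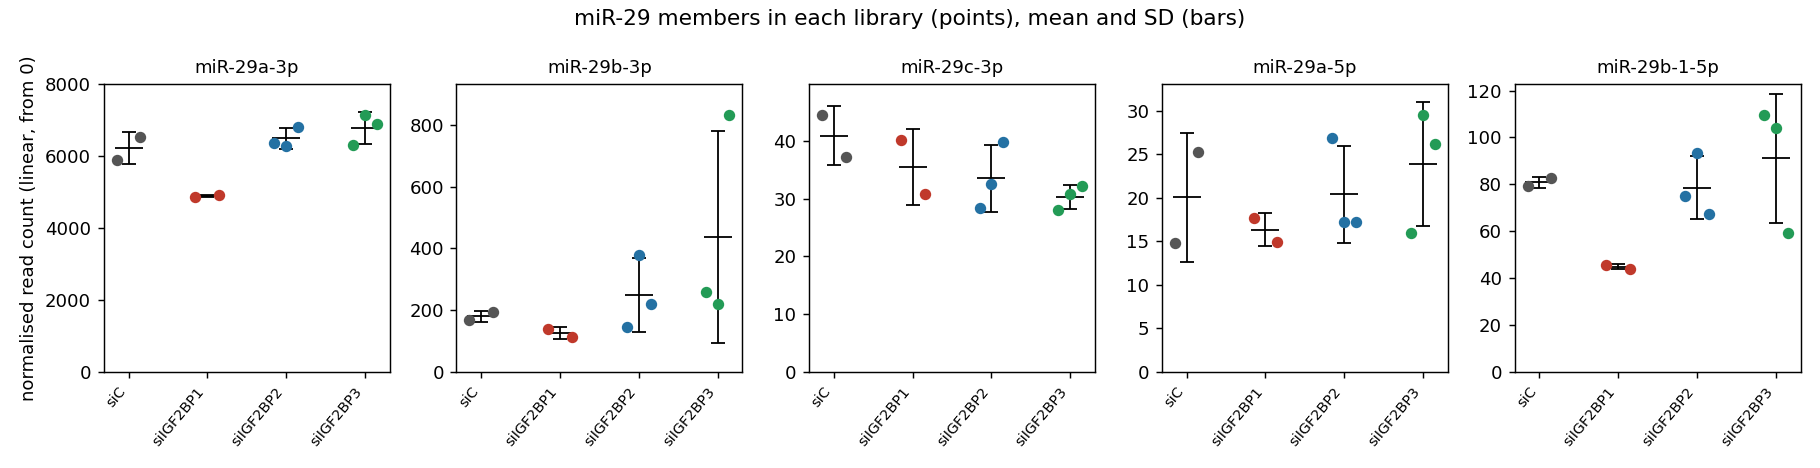
Normalised read count of each of the 5 miR-29 members (vertical axes, linear, from 0) in the 10 libraries by group (horizontal axis); points are libraries, and black bars give each group's mean and SD. In the miR-29a-3p panel the siIGF2BP1 libraries lie at 4867 and 4919 below all others, and in the miR-29b-3p panel siIGF2BP3 replicate 3 stands at 834.

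Against siC, miR-29a-3p differed by a log2 fold change of -0.34 ± 0.10 (SE) in siIGF2BP1 cells, which did not pass the test (limma, adjusted p = 0.110). With limma, 0 of 5 members were called in this comparison, against 2.47% of all miRNAs, and 2 of 5 had an unadjusted p under 0.05 (miR-29a-3p and miR-29b-1-5p). The call depended on the scaling and the model. Recovered whole reads tested with edgeR gave -0.60 (adjusted p = 0.00457) and with DESeq2 -0.58 (adjusted p = 2.06e-07), and both tools called 2 of 5 members, the same pair, against 12.5% and 10.4% of miRNAs. The direction was downward in 12 of 12 settings tried, and the adjusted p ranged from 2.06e-07 to 0.182. For miR-29a-3p the authors' deposited table gave -0.35 on the log2 scale, with a false discovery rate of 0.805.

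Against the other knockdowns, miR-29a-3p was lower in siIGF2BP1 cells. The log2 difference was -0.41 ± 0.10 (SE) from siIGF2BP2 (limma, adjusted p = 0.0123), where 1 of 5 members was called against 13.5% of all miRNAs. From siIGF2BP3 it was -0.47 ± 0.10 (SE; limma, adjusted p = 0.00383), where 2 of 5 members were called against 14.8%. Counting lower calls alone, the shares of all miRNAs were 1.69% and 2.59%, a base that includes many scarce miRNAs. Among the 313 miRNAs of mean level 10 or more, all 5 members included, 19 and 29 were called lower, 1 and 3 of them members. The difference from siIGF2BP3 was called in 14 of 14 settings and with each library left out. With 1 library left out, the difference from siIGF2BP2 lost its call without siIGF2BP1 replicate 1, siIGF2BP1 replicate 2 or siIGF2BP2 replicate 3, where the adjusted p rose to at most 0.0739. Both comparisons cross the labelled sources.

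miR-29a-3p did not pass the test against siC in siIGF2BP2 cells (log2 fold change 0.06, 95% confidence interval -0.14 to 0.27, limma adjusted p = 0.799) or in siIGF2BP3 cells (0.12, -0.08 to 0.33, adjusted p = 0.541). For siIGF2BP2 the sign turned under several scalings, whereas upper-quartile scaling gave calls of 0.54 and 0.72. That scaling moved the median of all miRNAs in these comparisons from -0.03 to 0.30 and from 0 to 0.43. Between siIGF2BP2 and siIGF2BP3 the log2 difference was -0.06 (-0.25 to 0.12, adjusted p = 0.852). In the siIGF2BP2 comparison with siC, 0 of 5 members were called against 9.0% of all miRNAs, and in that of siIGF2BP3 0 of 5 against 10.6%. Between siIGF2BP2 and siIGF2BP3 it was 0 of 5 against 3.15%. In these last 3 comparisons no member had an unadjusted p under 0.05 either in the limma fit as reported. None was called by edgeR (15.5%, 19.1% and 11.9% of all miRNAs) or DESeq2 (10.5%, 12.6% and 14.4%). In siIGF2BP3 against siC, DESeq2 gave miR-29b-3p an unadjusted p of 0.0233.

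**Figure D2:**
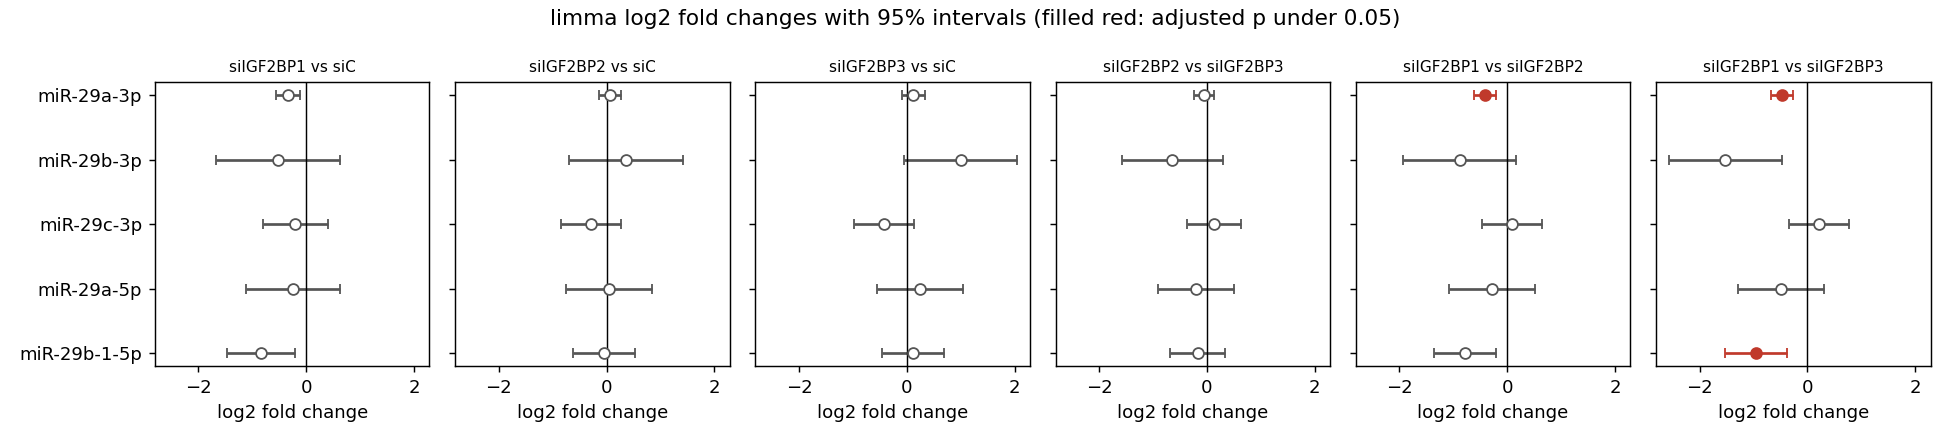
Log2 fold change of the 5 members in the 6 comparisons (horizontal axes, log2 scale; first group minus second), with bars for the 95% confidence interval of the limma fit and filled points for adjusted p under 0.05. The called differences are miR-29a-3p at -0.41 and -0.47 and miR-29b-1-5p at -0.95, all in siIGF2BP1 against another knockdown.

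miR-29b-3p, the guide arm with the nuclear hexamer, was the most variable member. Its normalised read count was 168 and 193 in siC, and 140 and 112 in siIGF2BP1. In siIGF2BP2 it was 147, 380 and 221, and in siIGF2BP3 257, 219 and 834. The siIGF2BP1 values lay below those of every other library, and siIGF2BP3 replicate 3 lay far above all others. All siIGF2BP3 values exceeded both siC values, as 11.2% of all miRNAs did. The group means were 181 ± 17.5 (SD, n = 2), 126 ± 19.7 (SD, n = 2), 249 ± 119 (SD, n = 3) and 437 ± 344 (SD, n = 3) in the same order, from 102 to 701 reads a library. Its residual SD of 0.732 on the log2 scale ranked 4th of the 149 miRNAs of mean level 100 or more.

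The siIGF2BP3 group mean of miR-29b-3p rested on 1 library. The log2 fold change from siC was 0.998 ± 0.48 (SE; limma, adjusted p = 0.272). For its 2 copies the authors' deposited table gave 1.32 and 1.23, with false discovery rates of 0.457 and 0.362. Without siIGF2BP3 replicate 3 the limma value was 0.40. In that library miR-29b-3p exceeded its group's mean by 1.21 on the log2 scale, the most of 149 miRNAs, whereas miR-29b-1-5p, the passenger arm of MIR29B1, had there its lowest value of the group. The miR-29b-3p difference between siIGF2BP1 and siIGF2BP3 was -1.52 ± 0.48 (SE), just outside the threshold (limma, adjusted p = 0.0545), and it was called in 8 of 14 settings. Without siIGF2BP3 replicate 3 it was -0.92 (adjusted p = 0.1004), and its adjusted p ran from 0.0323 to 0.340 with 1 library left out. The other limma comparisons of miR-29b-3p gave -0.52 (siIGF2BP1 against siC, adjusted p = 0.770), 0.36 (siIGF2BP2 against siC, adjusted p = 0.778), -0.88 (siIGF2BP1 against siIGF2BP2, adjusted p = 0.330) and -0.64 (siIGF2BP2 against siIGF2BP3, adjusted p = 0.582). Single libraries moved these values widely. Without siIGF2BP2 replicate 2, siIGF2BP2 against siC was 0.0014, siIGF2BP1 against siIGF2BP2 -0.52 and siIGF2BP2 against siIGF2BP3 -0.997. Without siIGF2BP2 replicate 1, siIGF2BP2 against siC was 0.68 and siIGF2BP2 against siIGF2BP3 -0.32. The last of these comparisons was -0.04 without siIGF2BP3 replicate 3 and -0.9998 without siIGF2BP3 replicate 2.

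miR-29c-3p, which differs from miR-29a-3p by a single base, was scarce, with 14 to 50 reads a library. Its normalised read count was 44.5 and 37.3 in siC, and 40.2 and 30.9 in siIGF2BP1. In siIGF2BP2 it was 28.3, 32.5 and 39.7, and in siIGF2BP3 27.9, 30.8 and 32.1. The siIGF2BP3 libraries lay below both siC libraries, a lack of overlap in that direction that 18.1% of all miRNAs showed, and the other groups overlapped. The group means were 40.9 ± 5.14 (SD, n = 2), 35.5 ± 6.59 (SD, n = 2), 33.5 ± 5.78 (SD, n = 3) and 30.3 ± 2.13 (SD, n = 3). The siIGF2BP3 difference from siC was -0.42 on the log2 scale (95% confidence interval -0.97 to 0.13; limma, adjusted p = 0.419). No comparison called miR-29c-3p with limma, edgeR or DESeq2 in any setting. In siIGF2BP1 its log2 difference was 0.08 (-0.47 to 0.64) from siIGF2BP2 and 0.21 (-0.34 to 0.77) from siIGF2BP3. The first interval includes the -0.41 of miR-29a-3p in that comparison, and the second does not reach its -0.47. Upper-quartile scaling turned both differences, to -0.59 and -0.57. The difference from siIGF2BP2 was also negative under median-of-ratios scaling (-0.075), with edgeR (-0.10) and with DESeq2 (-0.071).

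Among the passenger arms, miR-29b-1-5p was the more abundant and was lowest in siIGF2BP1. Its normalised read count was 79.2 and 82.5 in siC, and 45.8 and 44.1 in siIGF2BP1. In siIGF2BP2 it was 75.0, 93.6 and 67.3, and in siIGF2BP3 109.8, 104 and 59.5. The siIGF2BP1 libraries lay below all 8 others without overlap. The means were 80.8 ± 2.36 (SD, n = 2), 44.9 ± 1.21 (SD, n = 2), 78.6 ± 13.5 (SD, n = 3) and 91.1 ± 27.6 (SD, n = 3), from 39 to 88 reads a library. Against siIGF2BP3 it was lower in siIGF2BP1 by a log2 difference of -0.95 ± 0.27 (SE; limma, adjusted p = 0.0283). This call held in 12 of 14 settings, but with 1 library left out it held only without siIGF2BP3 replicate 3, and the adjusted p ranged from 0.00224 to 0.177. Without siIGF2BP1 replicate 1, siIGF2BP1 replicate 2, siIGF2BP3 replicate 1 or siIGF2BP3 replicate 2 the call was lost.

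The same arm gave -0.83 ± 0.29 (SE) in siIGF2BP1 against siC, which did not pass with limma (adjusted p = 0.171) and passed with edgeR on recovered reads (-1.10, adjusted p = 0.0416) and with DESeq2 (-1.08, adjusted p = 0.0448). The authors' deposited table gave -0.85 with a false discovery rate of 0.275. Against siIGF2BP2 the difference was -0.78 ± 0.27 (SE; limma, adjusted p = 0.0758), called in 6 of 14 settings. In the siIGF2BP2 and siIGF2BP3 comparisons with siC the log2 fold changes were -0.05 and 0.12 (adjusted p = 0.964 and 0.831).

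miR-29a-5p, the passenger arm of MIR29A, was detected at 8 to 25 reads a library. Its normalised read count was 14.8 and 25.3 in siC, 17.7 and 14.99 in siIGF2BP1, 26.9, 17.2 and 17.3 in siIGF2BP2, and 15.97, 29.6 and 26.2 in siIGF2BP3. All groups overlapped, with means of 20.1 ± 7.38 (SD, n = 2), 16.3 ± 1.90 (SD, n = 2), 20.4 ± 5.58 (SD, n = 3) and 23.9 ± 7.08 (SD, n = 3). The largest log2 difference was -0.48 between siIGF2BP1 and siIGF2BP3 (95% confidence interval -1.28 to 0.31; limma, adjusted p = 0.518). At this depth no difference between groups was detectable except under upper-quartile scaling, which called this one at -1.25. miR-29c-5p, with 20 reads in all libraries together, and miR-29b-2-5p, with 3, were too scarce to describe by group.

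Both siIGF2BP1 libraries lay below every library of the other group in 3 of 5 members against siC, against siIGF2BP2 and against siIGF2BP3. The members were miR-29a-3p, miR-29b-3p and miR-29b-1-5p each time. Over all 889 miRNAs, a base that includes many scarce ones, 11.9%, 7.99% and 9.45% lay below in these 3 comparisons, each taken separately. The share of miRNAs below in all 3 together was not counted. These comparisons share the siIGF2BP1 libraries. Ordered by level, the members ran miR-29a-3p, miR-29b-3p, miR-29b-1-5p, miR-29c-3p and miR-29a-5p in mean normalised read count over all 10 libraries, at ranks 23, 102, 165, 218 and 254 of 1196.

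Read shares do not depend on the authors' scaling. The 3 guide arms together held 0.670 and 0.692% of all miRNA reads in siC, and 0.495 and 0.524% in siIGF2BP1. They held 0.664, 0.708 and 0.748% in siIGF2BP2 and 0.713, 0.767 and 0.846% in siIGF2BP3. The siIGF2BP1 shares were the lowest and their counting intervals did not reach those of any other library, the highest upper bound being 0.538% and the lowest lower bound elsewhere 0.645%. Such intervals cover counting error only, since reads without molecular identifiers are not independent molecules. The group means were 0.681 ± 0.0155% (SD, n = 2), 0.509 ± 0.0206% (SD, n = 2), 0.706 ± 0.0420% (SD, n = 3) and 0.776 ± 0.0671% (SD, n = 3). An exact two-sided permutation test over libraries gave p = 0.333 for siIGF2BP1 against siC, the smallest that 2 against 2 allows. The same test gave 0.2 against siIGF2BP2 and 0.2 against siIGF2BP3, where adjustment over 36 such tests of shares and ratios gave 0.514. For siIGF2BP2 and siIGF2BP3 against siC it gave 0.6 and 0.2, and between these knockdowns 0.2 (exact permutation, adjusted 0.9, 0.514 and 0.514). By mean share the seed AGCACCA ranked 14th of 918 seeds, over miRNA names whose sequence was found (94.5% of reads).

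**Figure D3:**
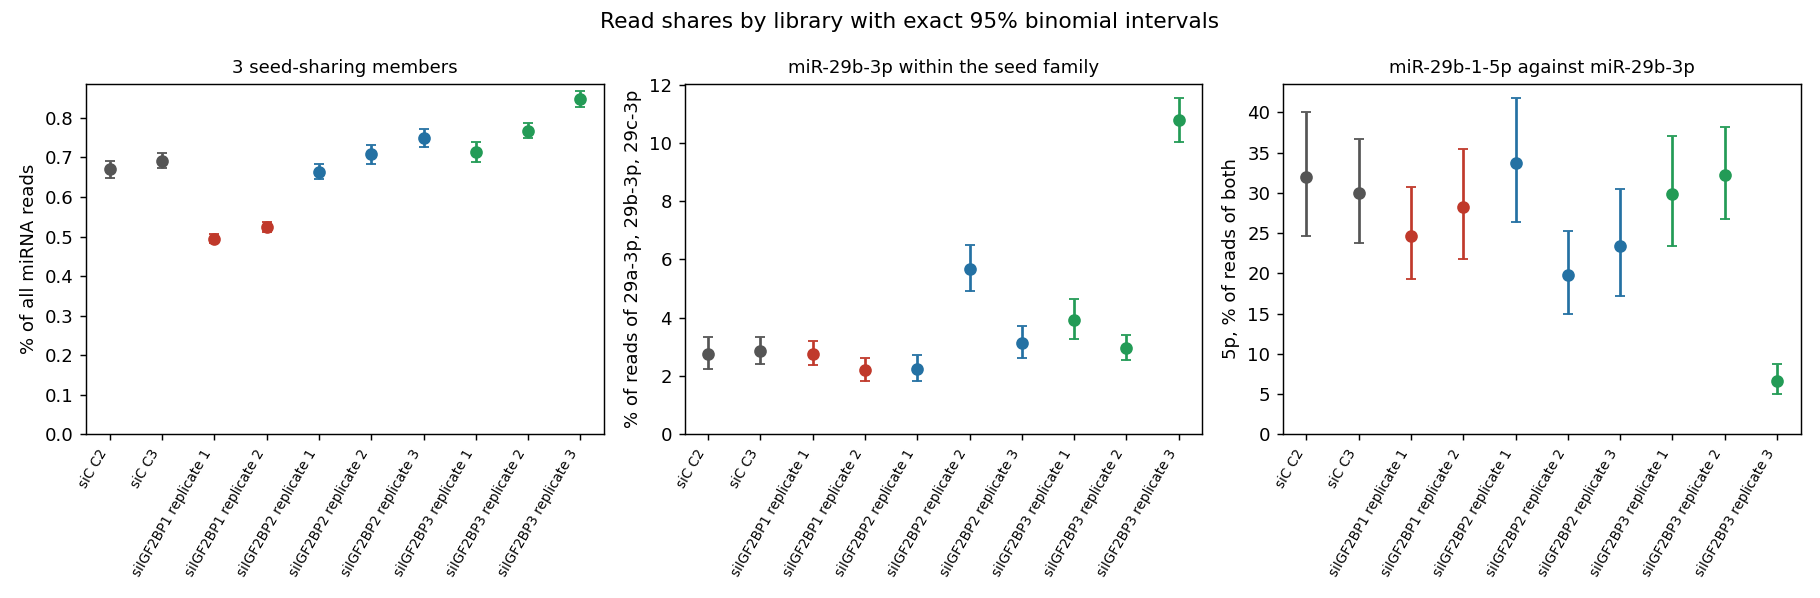
Read shares by library in percent, with points for libraries and bars for the 95% Clopper-Pearson interval, for the 3 guide arms among all miRNA reads, miR-29b-3p among the guide arms, and miR-29b-1-5p among its own reads and those of miR-29b-3p. The guide arms held 0.495 and 0.524% in siIGF2BP1, and siIGF2BP3 replicate 3 stands apart at 10.8% for miR-29b-3p and 6.66% for the passenger arm.

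Within the guide arms the mix was dominated by miR-29a-3p, at a mean of 96.6% in siC and 96.8% in siIGF2BP1, and of 95.8% and 93.7% in siIGF2BP2 and siIGF2BP3. miR-29b-3p made up 2.75 and 2.86% in siC, 2.77 and 2.21% in siIGF2BP1, and 2.25, 5.68 and 3.123% in siIGF2BP2. In siIGF2BP3 it made up 3.91, 2.96 and 10.8%. Most libraries therefore held miR-29b-3p at 2 to 4%, and siIGF2BP2 replicate 2 (interval 4.93 to 6.49%) and siIGF2BP3 replicate 3 (10.0 to 11.5%) lay above. miR-29c-3p stayed below 1% of the guide arms, at group means of 0.640, 0.703, 0.493 and 0.418%.

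The log2 ratio of miR-29a-3p to miR-29c-3p, which share all but 1 base, was 7.25 ± 0.28 (SD, n = 2) in siC and 7.12 ± 0.28 (SD, n = 2) in siIGF2BP1. In siIGF2BP2 it was 7.61 ± 0.20 (SD, n = 3), and siIGF2BP3 libraries had the highest mean, 7.81 ± 0.06 (SD, n = 3). The ratio of miR-29a-3p to miR-29b-3p was 5.11 ± 0.04 (SD, n = 2), 5.29 ± 0.24 (SD, n = 2), 4.81 ± 0.70 (SD, n = 3) and 4.23 ± 1.05 (SD, n = 3). For these ratios, the exact permutation test cannot go below 0.333 for 2 libraries against 2, 0.2 for 3 against 2 or 0.1 for 3 against 3, so no ratio could reach 0.05.

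Passenger arms were a small part of the miR-29a hairpin and a large part of the miR-29b reads. miR-29a-5p was 0.251 to 0.420% of the reads of both miR-29a arms in the 10 libraries. miR-29b-1-5p was 19.8 to 33.8% of its own reads plus those of miR-29b-3p in 9 libraries and 6.66% (4.98 to 8.68%) in siIGF2BP3 replicate 3. The denominator includes guide arms from both miR-29b hairpins, so the share of MIR29B1 alone is not known.

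Other miRNAs of the MYC and matrix pathways were set beside the family. Of 19 miRNAs outside the family that MYC is known to repress, all 19 were tested. In siIGF2BP1 against siC 1 rose and 0 fell: miR-22-3p, from 25952 ± 2851 to 36439 ± 3713 (SD, n = 2 each), with a log2 fold change of 0.49 (limma, adjusted p = 0.0322). Over all miRNAs 2.47% were called in this comparison. That call was kept under 1 of 4 other scalings, with the same sign under all 4. The list's median log2 fold change was 0.18 and that of the miR-29 members -0.34, against 0.10 over all miRNAs. Under TMM scaling the list's median was -0.02 and that of the members -0.55, against 0 over all miRNAs, with 0 of the list called higher and 1 lower.

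In siIGF2BP2 against siC 1 of the 19 rose, the inflammation-linked miR-146a-5p (1.22, limma adjusted p = 2.41e-05), and 0 fell, where 9.0% of all miRNAs were called. Under TMM scaling 1 was called higher and 1 lower there, where 4 of all 889 miRNAs were higher and 81 lower. Under upper-quartile scaling it was 8 higher and 0 lower, where 94 of all 889 were higher and 64 lower.

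In siIGF2BP3 against siC 0 rose and 3 fell, where 10.6% of all miRNAs were called. Under upper-quartile scaling 10 were called higher and 1 lower, where 137 of all 889 miRNAs were higher and 66 lower. The 3 that fell were miR-146a-5p (-0.99, limma adjusted p = 0.000153), miR-30c-5p (-0.47, adjusted p = 0.00649, turning to 0.13 under upper-quartile scaling) and the p53 target miR-34a-5p. The last had no read in any siIGF2BP3 library and 7.13 ± 3.09 units in siC (SD, n = 2), where 1 read is worth 1.33 or 1.65 units. The list's medians were -0.03 for siIGF2BP2 and -0.01 for siIGF2BP3, against -0.03 and 0 over all miRNAs.

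Between knockdowns, 3 of these 19 were higher and 1 lower in siIGF2BP1 than in siIGF2BP2, and 4 were higher and 0 lower than in siIGF2BP3. Over all miRNAs 13.5% and 14.8% were called in these comparisons, most of them higher in siIGF2BP1 (105 and 109). miR-146a-5p had the lowest adjusted p against siIGF2BP3, where it was higher by 1.37 (limma, adjusted p = 8.61e-06), and it was the one called lower against siIGF2BP2 (-0.84, adjusted p = 0.000536). The growth-restraining let-7d-5p was higher against both, by 0.88 and 0.77 on the log2 scale (limma, adjusted p = 0.00045 and 0.000842), the second turning to -0.05 under upper-quartile scaling. miR-26a-5p was higher by 0.35 and 0.60 (limma, adjusted p = 0.0296 and 0.000786), and both turned under that scaling, to -0.34 and -0.21. The remaining calls were miR-22-3p against siIGF2BP2 (0.35, limma adjusted p = 0.0319, turning to -0.34 under that scaling) and miR-34a-5p against siIGF2BP3 (adjusted p = 0.0351). The call of miR-34a-5p rests on few reads, at 5.61 ± 4.53 units in siIGF2BP1 (SD, n = 2) and 0 in siIGF2BP3. The list's medians were 0.33 and 0.26 (0.22 and 0.16 over all miRNAs), and those of the miR-29 members -0.41 and -0.48. Under upper-quartile scaling 0 were called higher and 8 lower against siIGF2BP2, and 2 higher and 11 lower against siIGF2BP3. Of all 889 miRNAs, that scaling called 67 higher and 107 lower against siIGF2BP2, and 78 higher and 145 lower against siIGF2BP3. Comparing siIGF2BP2 with siIGF2BP3, 2 were higher in siIGF2BP2 and 0 lower, where 3.15% of all miRNAs were called. They were miR-146a-5p (2.21, limma adjusted p = 1.05e-07) and miR-30c-5p (0.46, adjusted p = 0.0167).

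A list of 16 miRNAs linked to fibrosis and the matrix, which shares let-7d-5p and miR-26a-5p with the MYC list, had 13 members tested. In siIGF2BP1 against siC 0 were called with limma (5 at an unadjusted p under 0.05, and 0 higher and 2 lower under TMM scaling). The list's median there was 0.19, against 0.10 over all miRNAs. In siIGF2BP2 against siC 1 rose, miR-30a-5p (0.29, limma adjusted p = 0.0433, kept under 1 of 4 scalings), and 0 fell. In siIGF2BP3 against siC 1 rose, miR-155-5p (0.41, limma adjusted p = 0.0379, kept under 2 of 4 scalings), and 1 fell, the profibrotic miR-21-5p (-0.53, adjusted p = 0.00104, turning to 0.07 under upper-quartile scaling). Upper-quartile scaling gave 4 higher and 0 lower in each of the last 2 comparisons, and the shares of all miRNAs called in the 3 comparisons with siC are those given for the MYC list.

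From the same list, 2 were higher and 1 lower in siIGF2BP1 than in siIGF2BP2, against 13.5% of all miRNAs called, and 0 higher and 5 lower under upper-quartile scaling. let-7d-5p and miR-26a-5p were the higher ones, and miR-30a-5p was lower (-0.56, limma adjusted p = 0.000536). Against siIGF2BP3, 3 were higher and 1 lower, where 14.8% of all miRNAs were called, and under upper-quartile scaling 0 were higher and 6 lower. That scaling called 107 and 145 of all 889 miRNAs lower in these comparisons. Against siIGF2BP3 as reported, miR-21-5p had the lowest adjusted p (0.82, limma adjusted p = 1.91e-05), followed by miR-155-5p, the lower one (-0.88, adjusted p = 0.000109). The miR-21-5p difference ran from 0.01 to 0.73 over 4 other scalings and lost its call under upper-quartile scaling. The miR-155-5p call was kept under all 4. Comparing siIGF2BP2 with siIGF2BP3, 2 were higher in siIGF2BP2 and 1 lower, where 3.15% of all miRNAs were called. The higher ones were miR-21-5p (0.68, limma adjusted p = 0.000219) and miR-30a-5p (0.50, adjusted p = 0.00213), and miR-155-5p was lower (-0.60, adjusted p = 0.00556).

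The miRNAs whose levels followed miR-29a-3p most closely over the 10 libraries, among 147 others of mean level 100 or more, were miR-125b-1-3p (Pearson r = 0.872), miR-221-3p (0.845) and miR-500a-3p (0.831). These correlations describe 10 libraries in 4 groups, which differ in depth and in the labelled source, and carry no test. Within the siC and siIGF2BP1 libraries they were 0.954, 0.991 and 0.917, and within the siIGF2BP2 and siIGF2BP3 libraries 0.688, 0.410 and 0.594. miR-221-3p, a miRNA known for repressing the cell cycle inhibitor CDKN1B, was 35581 and 37835 in siC and 29372 and 30595 in siIGF2BP1. Among the members, r with miR-29a-3p was 0.701 for miR-29b-1-5p, its cluster partner, 0.610 for miR-29a-5p, 0.593 for miR-29b-3p and -0.213 for miR-29c-3p. Within the siC and siIGF2BP1 libraries these were 0.969, 0.631, 0.911 and 0.365, and within the siIGF2BP2 and siIGF2BP3 libraries -0.258, 0.583, 0.170 and 0.405. The sign for miR-29b-1-5p thus turned within the latter, and that for miR-29c-3p was positive within both.

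**Figure D4:**
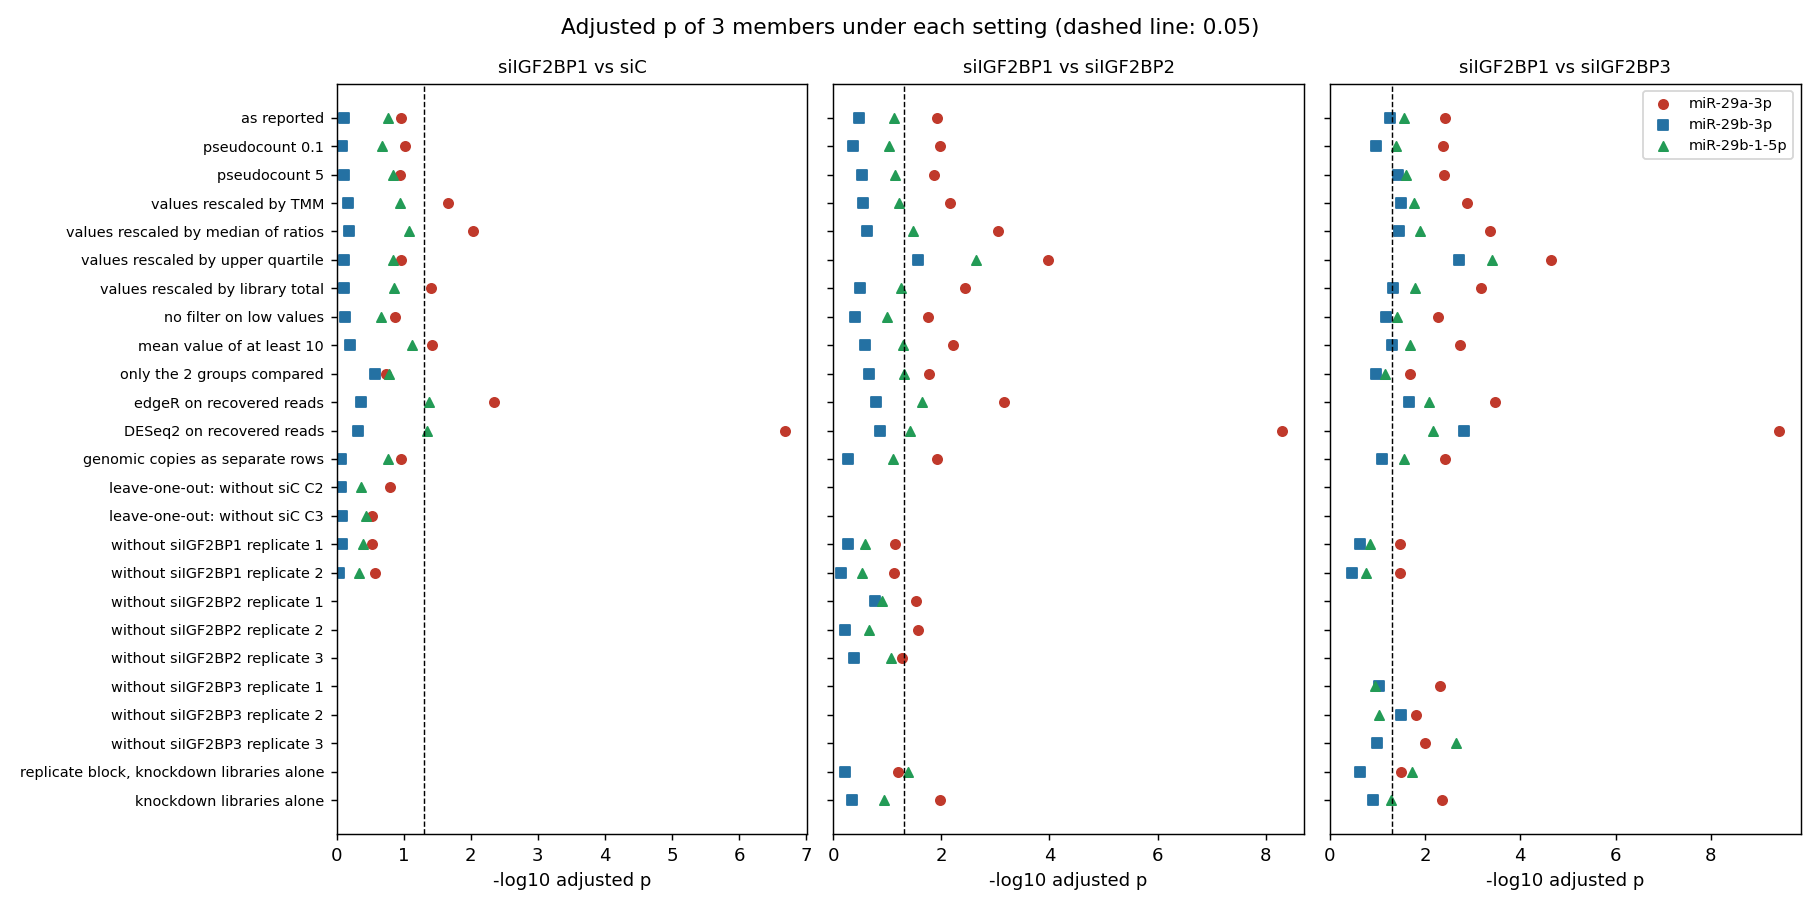
Adjusted p of miR-29a-3p, miR-29b-3p and miR-29b-1-5p as -log10 (horizontal axes, higher is a smaller p) under each processing setting and with each library left out (vertical axis), for siIGF2BP1 against each other group; the dashed line marks 0.05. The miR-29a-3p points lie beyond the line in every row against siIGF2BP3, and on both sides of it against siC.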

How the data were processed

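Small RNA was sequenced from ES-2 cells in 10 libraries. Genome build hg19 and the tools cutadapt 1.6, Bowtie2 2.2.4, featureCounts 1.4.6 and edgeR 3.12 are listed, per the submitters' processing notes; how the values were scaled, and the miRNA annotation, is not stated there. The authors deposited a normalised signal per miRNA and library, and, per the file headers, log2 fold changes and p-values with false discovery rates for each knockdown against control. Every signal value was a whole multiple of 1 factor per library (100% whole within 0.01 reads), so whole reads were recovered. The 2794 rows were summed by name to 2576 mature miRNAs. Neither control column could be tied to a single control sample, so these are named C2 and C3.

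Values of at least 1 in at least 2 libraries were kept (889 miRNAs), and log2(value + 1) was fitted with limma 3.58.1 (R 4.3.3), with an intensity trend, all 4 groups in 1 fit, no covariate, and Benjamini-Hochberg adjustment over all 889. Read shares and log2 ratios were compared by exact permutation over libraries (scipy 1.17.1). Alternatives were other pseudocounts, scalings and filters, the 2 groups alone, separate genomic copies, each library left out, a replicate block, and edgeR 4.0.16 or DESeq2 1.42.0 on recovered reads; for siIGF2BP1 against siC these called 42 and 35 miRNAs, and limma 22. On simulated reads for siIGF2BP1 against siC, limma recovered 17.0% of changes of 2-fold and 36.7% of changes of 4-fold over 812 miRNAs, and 36.1% and 90.3% of those at 20 RPM or more. Libraries of a group differed beyond sampling error, with chi-square values of 8.17 to 46.8 for each degree of freedom. Sequences came from RefSeq tables (GRCh38.p14), where 7 of 7 miR-29 names matched; no coordinates are printed, since the build differs from hg19. The named miRNAs are all members, up to 4 list members called by limma in each comparison, by lowest adjusted p, and the 3 miRNAs most correlated with miR-29a-3p. Members and lists were chosen with earlier results of these data known.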

Additional observations from a re-analysis of the deposited data

Results flagged for a closer look

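A test of the difference between knockdowns set 3 results apart. miR-29a-3p was lower in siIGF2BP1 than in siIGF2BP2 (log2 difference -0.41, limma adjusted p = 0.0123) and than in siIGF2BP3 (-0.47, limma adjusted p = 0.00383), both libraries of siIGF2BP1 lying below all 3 of each other group. miR-29b-1-5p was lower in siIGF2BP1 than in siIGF2BP3 (-0.95, limma adjusted p = 0.0283), again in both libraries. Since each knockdown shares the siC control, these are also the differences between the knockdowns' effects. Over all miRNAs, 7.99% lay below without overlap in siIGF2BP1 against siIGF2BP2, and 9.45% against siIGF2BP3. The shares called in either direction were 13.5% and 14.8%, and those called lower 1.69% and 2.59%. The labelled source differs between the groups compared and cannot be told apart from the knockdown. No group held the 4 libraries needed for the test of single outlying libraries.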

How the results depend on the processing

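In siIGF2BP1 against siC, where 0 members were called, edgeR and DESeq2 on recovered reads called 2. The filter at a mean of 10, library-total, median-of-ratios and TMM scaling called 1 each. Over all miRNAs, edgeR called 42 of 335, DESeq2 35 of 338 and the filter 52 of 313 there. The same scalings called 24, 28 and 25 of 889, against 22 as reported. Upper-quartile scaling called 1 member in siIGF2BP2 and 2 in siIGF2BP3 against siC, in place of 0. That scaling called 158 and 203 of all 889 miRNAs in these comparisons. In siIGF2BP1 against siIGF2BP2, where 1 was called, DESeq2, edgeR, median-of-ratios scaling and the 2 groups alone gave 2, and upper-quartile scaling 3. In siIGF2BP1 against siIGF2BP3, where 2 were called, the 2 groups alone gave 1, the knockdown libraries alone (chosen after seeing the data) 1, upper-quartile scaling 4, and DESeq2, edgeR, the filter at a mean of 10, pseudocount 5, and library-total, median-of-ratios and TMM scaling 3 each. With 1 library left out these last 2 counts ran from 0 to 1 and from 1 to 2. Over all miRNAs, siIGF2BP1 against siIGF2BP2 gave 120 of 889 calls as reported, 82 of 524 with DESeq2 and 85 of 335 with edgeR. Upper-quartile scaling gave 174 of 889, and the 2 groups alone 123 of 693. Against siIGF2BP3 these were 132 of 889, 115 of 570 and 124 of 335, and the filter at a mean of 10 gave 103 of 313. Upper-quartile scaling gave 223 of 889 there, and pseudocount 5 and the other scalings 132 to 135 of 889. The cause of these changes was not tested.

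Signs turned for small differences. In siIGF2BP2 against siC, miR-29a-3p was -0.059 under TMM, -0.0069 under median-of-ratios scaling and -0.0067 with DESeq2. miR-29a-5p was -0.075, -0.025 and -0.036 in the same 3, and -0.035 with edgeR. Under upper-quartile scaling miR-29c-3p was 0.18 and miR-29b-1-5p 0.42, and in siIGF2BP3 against siC miR-29c-3p was 0.16. In siIGF2BP1 against siIGF2BP2, miR-29c-3p was -0.075 under median-of-ratios and -0.59 under upper-quartile scaling, -0.10 with edgeR and -0.071 with DESeq2, and against siIGF2BP3 -0.57 under upper-quartile scaling.

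With 1 library left out, signs turned within these ranges. For siIGF2BP1 against siC, miR-29a-5p ran from -0.61 to 0.12. For siIGF2BP2 against siC, miR-29a-3p ran from -0.0089 to 0.14, miR-29a-5p from -0.32 to 0.41 and miR-29b-1-5p from -0.18 to 0.051. For siIGF2BP3 against siC, miR-29a-5p ran from -0.12 to 0.61 and miR-29b-1-5p from -0.038 to 0.40. For siIGF2BP1 against siIGF2BP2, miR-29c-3p ran from -0.10 to 0.27.

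The log2 ratio of miR-29a-3p to miR-29c-3p in siIGF2BP1 against siC ran from -0.33 to 0.068. That of miR-29a-3p to miR-29a-5p ran from -0.40 to 0.22 in siIGF2BP1, -0.29 to 0.33 in siIGF2BP2 and -0.44 to 0.18 in siIGF2BP3 against siC. Against siIGF2BP2 and siIGF2BP3 it ran from -0.34 to 0.030 and from -0.10 to 0.25 in siIGF2BP1. That of miR-29a-3p to miR-29b-3p ran from -0.61 to 0.085 in siIGF2BP2 against siC and from -0.011 to 0.98 between siIGF2BP2 and siIGF2BP3. That of miR-29b-3p to miR-29b-1-5p ran from -0.0057 to 1.36 in siIGF2BP3 against siC and from -0.95 to 0.42 between siIGF2BP2 and siIGF2BP3. In siIGF2BP1 it ran from -0.39 to 0.13 against siIGF2BP2 and from -1.04 to 0.33 against siIGF2BP3. A library left alone in its group was assumed to vary like the others.

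Replicate numbers showed no steady pairing in deviations from group means: same-numbered siIGF2BP2 and siIGF2BP3 libraries correlated at -0.121, -0.157 and -0.0368. Same-numbered siIGF2BP1 libraries correlated at 0.123 and -0.022 with siIGF2BP2, and at 0.090 and 0.104 with siIGF2BP3. With groups of 2 or 3 libraries, such correlations cannot settle whether libraries were paired. With the replicate number as a block among the knockdown libraries, members called were 1, 2 and 0 in siIGF2BP1 against siIGF2BP2, siIGF2BP1 against siIGF2BP3 and siIGF2BP2 against siIGF2BP3, and over all miRNAs 100, 120 and 10, where the same libraries without the block gave 124, 138 and 21. miR-29a-3p was then -0.38 against siIGF2BP2 (limma, adjusted p = 0.0632) and miR-29b-1-5p -0.97 (adjusted p = 0.0406). Over all miRNAs in siIGF2BP1 against siC, 19 were called higher and 3 lower as reported, 12 and 13 under TMM, 13 and 15 under median-of-ratios, 7 and 3 under upper-quartile and 17 and 7 under library-total scaling. Depth limits miR-29c-3p and miR-29a-5p, at 8 to 50 reads a library.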

Other observations

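The miRNAs most like miR-29b-3p in level over the 10 libraries were examined after its high value in siIGF2BP3 replicate 3 was seen. They were miR-142-5p, a blood cell miRNA (Pearson r = 0.945), miR-1307-5p (0.926) and miR-100-3p (0.909), with no test. In siIGF2BP3, miR-142-5p stood at 565, 502 and 1313 units, miR-1307-5p at 750.4, 661 and 1395, and miR-100-3p at 2171, 1632 and 3048. All 3 were highest in replicate 3, as was miR-29b-3p at 834. The 7 blood cell miRNAs, among them miR-142-5p itself, together held 0.163% of reads in that library and 0.0439 to 0.118% in the other 9. Most of their 1253 reads in that library were miR-142-5p, at 1313 units with 1 read worth 1.19 units. The share there thus largely repeats miR-142-5p, and the list without it was not examined. The part of blood cell miRNAs in the miR-29b-3p value was not tested. miR-29a-3p, with the same seed, was 6876 there, inside the range of its group.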
